A study of Mus musculus with 4 samples.

Results

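A group of 316 genes, of 16416 in the table, was lower in miR-26a knockout cells given a negative-control siRNA than in both untransfected knockout cells and knockout cells given a miR-26a mimic. The genes were chosen from the deposited normalized counts. A member fell by at least 0.4 on the log2 scale from the knockout to the negative-control library and was higher by at least 0.4 in the mimic library, after adding 1 to each value. It also had at least 50 normalized counts in the knockout and in the mimic library. Predicted and clone names and 7 named genes were left out, which removed 15 of 331 genes. The 316 genes are 2.85% of the 11098 that met the same floor and name filter, and 315 of them are protein-coding. The same limits turned upside down, for genes higher only with the negative control, gave 54 genes. The limit on the fall was met by 567 of the 11098 genes and that on the rise by 600, with the 316 members included in both counts.

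The cells were fibroblasts grown out of the joint capsule of mouse shoulders 1 week after the joint had been immobilized, used at passage 2. Groups of 1 library each were wild-type C57BL6/J cells without oligonucleotide, miR-26a -/- cells without oligonucleotide, miR-26a -/- cells with 10 nM Silencer Negative Control siRNA#1, and miR-26a -/- cells with 10 nM miR-26a mimic. Both oligonucleotides were delivered with Lipofectamine RNAiMax for 24 h. The last 3 groups therefore share the knockout. A knockout library that received the transfection reagent alone was not analysed here, and neither the number of animals behind each culture nor the deleted locus is given in the labels. MiR-26a itself was not measured.

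A microRNA guides a silencing complex to transcripts by pairing of its seed, near the 5' end, with short complementary sequences, most often in the 3' untranslated region (3' UTR), and paired transcripts usually become less abundant. A small interfering RNA is a short duplex that enters the same complex, and transfected siRNAs are known to lower transcripts that match their seed as well as their intended target. A negative-control siRNA is designed to have no intended target, and its library serves as the reference for the mimic. The sequence of the negative-control siRNA is not given in the sources used here, so no pairing of either of its strands with a transcript was tested. MiR-26a-5p, the strand given back by the mimic, has this mature sequence in RefSeq (GRCm38.p6), from chr9:119031811-119031832 and chr10:126995543-126995564, both on the + strand, with the seed (bases 2 to 8) in capitals.
miR-26a-5p: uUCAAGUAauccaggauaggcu

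Since each group is a single library, differences could not be set against the spread of replicates, no p-value is given, and each direction compares libraries. Estimated counts summed to between 17598763 and 19392655 per library. Log2 ratios in the text were computed from counts after edgeR TMM scaling, each followed by its exact binomial (Clopper-Pearson) 95% interval, and these intervals cover counting error only. A gene counts as differing where the ratio was at least 2-fold and the interval excluded 0. TPM, which is scaled for transcript length, is used for levels. The 12 macrophage markers together had 21912 TPM in the wild-type library, 32211 in the knockout, 31137 with the negative control and 31079 with the mimic, although the labels name fibroblasts. The 9 fibroblast markers had 16472, 9240.4, 8136 and 9524 TPM in the same order. No marker of either list was at 0 in any library. None of the macrophage markers was a member, and 2 fibroblast markers were, Vim and Prg4. In bulk RNA, fewer cells of a type and less RNA per cell cannot be told apart.

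The members ranged widely in abundance and mostly in a shallow dip. Their levels in the negative-control library ran from 0.49 to 2194 TPM. The median over the members was 21.7 TPM in the wild-type library, 16.1 in the knockout, 10.7 with the negative control and 16.6 with the mimic. The rule sets the negative control below the knockout and the mimic, and the wild-type library was lower still in TPM for 35 members and higher than the negative control for the other 281. Calling the smaller of the fall and the rise the dip, 13 members dipped by at least 1 on the log2 scale, 68 by at least 0.7 and 128 by less than 0.5. Both intervals excluded 0 for 288 members (91.1%), and 83 had fewer than 100 normalized counts in the negative-control library.

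**Figure D1:**
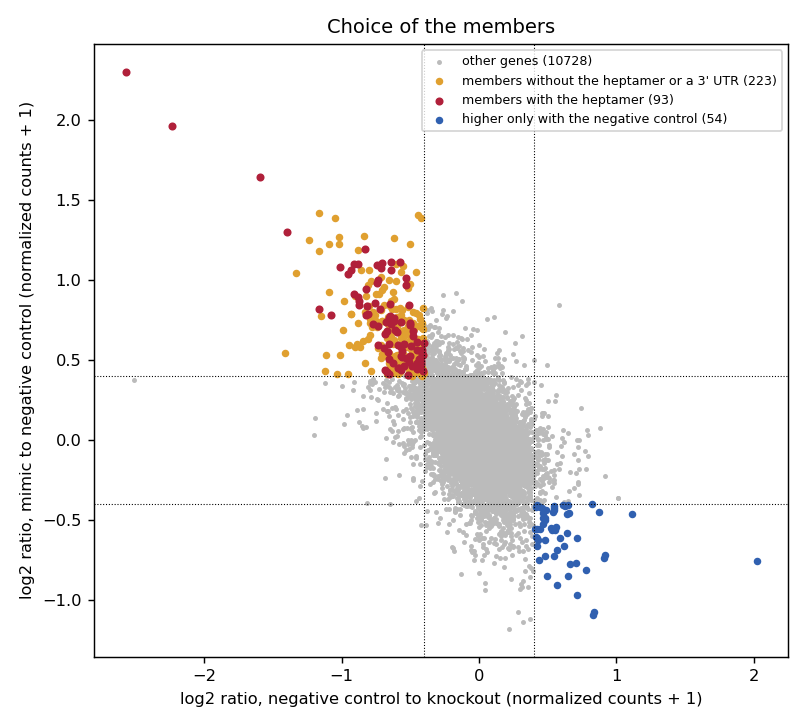
Log2 ratio of normalized counts + 1, negative control to knockout (horizontal) and mimic to negative control (vertical), for the 11098 genes above the floor, with the limits of 0.4 dotted. Members lie in the upper left, 93 of them (dark red) with the 7 bases GCAGTAC in the 3' UTR, and 54 genes lie in the lower right; both axes share the negative-control library, so a slope from upper left to lower right is built in.

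The edge of the group falls within a continuous spread of values. Just inside the limit on the fall were Ikbkg and Lysmd1. Ikbkg, a subunit of the IKK complex of NF-kappaB signalling, had 1510.7 normalized counts in the knockout, 1144 with the negative control and 1744 with the mimic. Just outside it were Cul3, Gatad2a and Ndrg4, and Cul3 had 1780.5, 1349 and 1856. Inside the limit on the rise were Dtd2, Gpr153 and Rccd1, and outside it Slc4a4, Ltbp2 and Socs6. Ltbp2, a matrix protein, had 16589 in the knockout, 11599.5 with the negative control and 15239 with the mimic.

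By construction the ratios of negative control to knockout were all below 0, with a median of -0.59, and those of mimic to negative control all above 0, with a median of 0.63. At 2-fold, 22 members were lower and 0 higher in the first comparison, beside 0.718% and 0.295% of the genes tested. In the second 38 were higher and 0 lower, beside 0.855% and 0.352%. The rule used both comparisons, so these counts describe the choice. Between mimic and untransfected knockout the members had a median of 0.03 and no member differed at 2-fold in either direction. There 0.263% of the genes tested were higher and 0.471% lower. Between these 2 libraries the members ran from Elobl, at -0.87 (-1.25 to -0.52), to Ak4, a mitochondrial adenylate kinase, at 0.97 (0.78 to 1.17).

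The deepest dip was that of Zfp966, a zinc finger gene, which had 5.14 TPM in the wild-type library, 10.85 in the knockout, 3.16 with the negative control and 10.53 with the mimic. It belongs to a family of near-identical copies that can share reads, and its values are uncertain. Tcfl5, a transcription factor gene known from testis, had 2.43 TPM in the wild type, 4.41 in the knockout, 0.93 with the negative control and 3.77 with the mimic. Its ratio of negative control to knockout was -2.23 (-3.09 to -1.56). Lrtm1, which encodes a leucine-rich repeat membrane protein, had 7.79, 1.89, 0.63 and 2.02 TPM in the same order. In that gene the wild-type library was the highest and the negative-control library the lowest. Rasl12, a Ras-like GTPase, had 7.86, 9.10, 3.47 and 8.68 TPM, so that 3 libraries were close and the negative-control library alone was low.

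Among the deepest 25 were genes of the cell surface and matrix. Itgb8, the integrin subunit known for activating latent TGF-beta, had 11.86 TPM in the wild type, 6.19 in the knockout, 2.68 with the negative control and 6.45 with the mimic. Col8a1, a chain of the network-forming collagen VIII, had 252.1 (wild type), 132.0 (knockout), 66.7 (negative control) and 161 (mimic) TPM, and its ratio of negative control to knockout was -1.02 (-1.08 to -0.96). Of the members that reached 2-fold in that comparison, Col8a1 had the most counts, 6141 in the knockout. Chsy3, a chondroitin sulfate synthase, Gxylt2, a xylosyltransferase that extends sugars on Notch receptors, Artn, a ligand of the GDNF family, Pkia, an inhibitor of protein kinase A, Cilp, a cartilage matrix protein, and Abi3bp, a matrix-associated protein, shared one order of libraries. In each the wild type was highest, the knockout and mimic libraries were in the middle and the negative control was lowest. For Cilp the 4 values were 20.39, 3.92, 1.88 and 3.59 TPM, and for Abi3bp 70.62, 17.80, 10.28 and 19.19 TPM.

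Others of the 25 stood at similar levels in 3 libraries. Trappc2, a subunit of the TRAPP complex of vesicle transport, had 27.69 TPM in the wild type, 29.43 in the knockout, 15.04 with the negative control and 32.0 with the mimic. Lage3, a subunit of the tRNA-modifying KEOPS complex, had 62.23, 70.48, 39.1 and 73.52 TPM. In both genes the negative-control library was the outlying one, and the other 3 differed by less than the dip. Plscr3, a phospholipid scramblase, had 118.5, 91.2, 48.1 and 97.2 TPM, and Fam8a1, known from the degradation of misfolded proteins, 59.4, 43.9, 21.3 and 47.9 TPM. Heg1, a receptor that binds the junction protein KRIT1, and Anxa8, an annexin, were lower in the wild type than in the knockout, Anxa8 at 48.1 against 94.5 TPM. For Anxa8, Nkain4, Asic1 and the cardiac transcription factor Tbx20 the wild-type library, not the negative-control one, was the lowest of the 4. The other members of this set were Scx, Crabp2, Camk2n1 and Hspa12a.

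**Figure D2:**
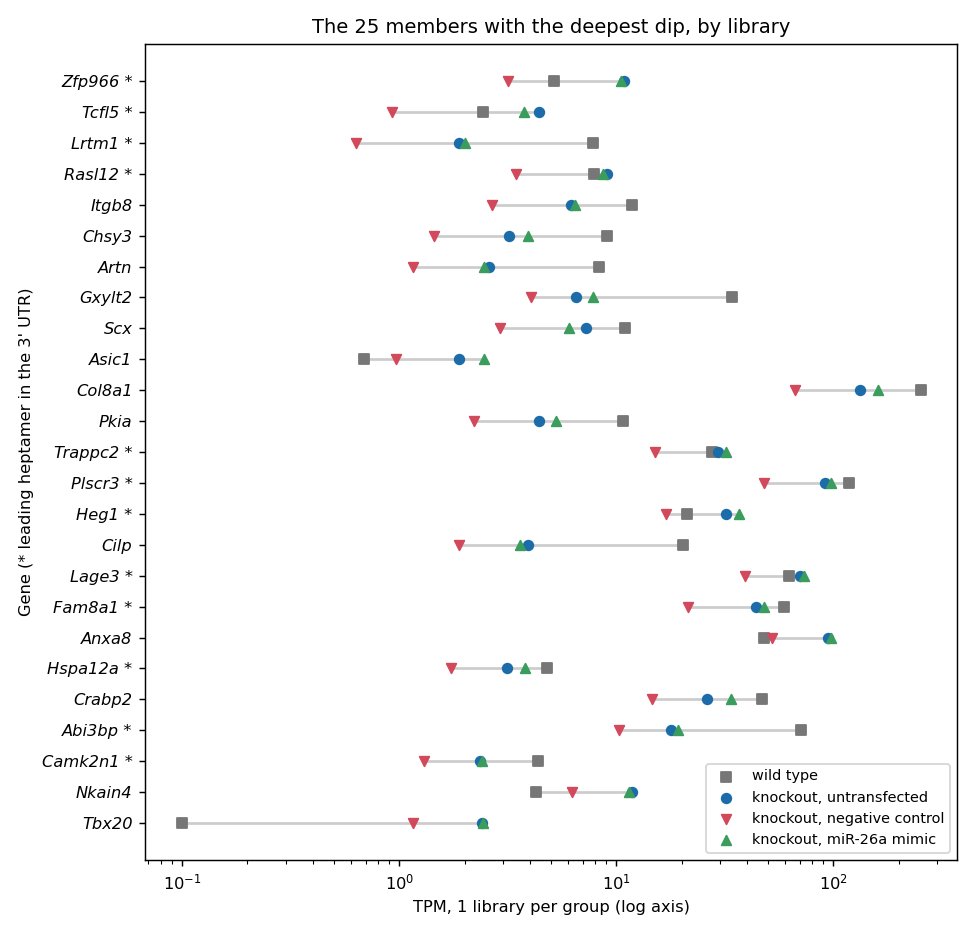
TPM (log axis) of the 25 members with the deepest dip in each of the 4 libraries, 1 point per library. The negative-control triangle lies left of the knockout circle and the mimic triangle in every row, as the rule requires, while the wild-type square ranges from far right (Gxylt2, 34.09 TPM) to far left (Tbx20, 0.1 TPM).

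The 10 most abundant members dipped less than the members named above for their depth, but were counted most precisely. Their dips ran from 0.43 (Lamp2) to 0.85 (Selenof) on the log2 scale. Whether depth changed with abundance over all members was not tested. Vim, the intermediate filament protein of mesenchymal cells, had 3740.3 TPM in the wild type, 3205 in the knockout, 2194 with the negative control and 3002 with the mimic, and its ratio of negative control to knockout was -0.59 (-0.61 to -0.57). Selenof, a selenoprotein of the endoplasmic reticulum, had 566, 520.3, 294 and 528 TPM and a ratio of -0.87 (-0.93 to -0.81). Both were lowest with the negative control, and for Selenof the other 3 libraries nearly coincided. Arpc1b, a subunit of the Arp2/3 actin nucleator, had 736, 832, 539.96 and 867 TPM. Timp3, an inhibitor of metalloproteinases, differed from these in having its lowest level in the wild type, at 324 TPM, against 1051 in the knockout, 709 with the negative control and 1525 with the mimic. Ly6a, Cd248, Lamp2, Surf4 and Mfsd1 complete the 10 most abundant with Rpsa. Rpsa, a ribosomal protein gene with many processed copies in the genome, had 1234, 1199, 839.6 and 1334 TPM and is uncertain for that reason.

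The sequence of the members' 3' UTRs was not used by the rule. A 3' UTR was found in the GENCODE M21 annotation of GRCm38 for 314 members and for 11058 of the 11098 genes above the floor, with the transcript of the longest 3' UTR taken for each gene. All 16106 sequences of 7 bases present in the 3' UTRs of at least 50 of those genes were compared on the transcript strand. GCAGTAC stood first of the 16106, both by the difference and by the ratio of the shares. It was present in 93 of 314 members (29.6%) and in 674 of 11058 genes (6.10%), 4.86 times as often. The next 2 were CAGTACA, in 27.7% of members and 10.2% of genes, and TGCAGTA, in 26.8% and 11.2%, and both overlap GCAGTAC by 6 bases. Among genes without GCAGTAC these shares were 15.4% against 7.97% for CAGTACA and 14.0% against 8.73% for TGCAGTA. The fourth, AAAAATA, was in 43.9% of members and 32.6% of genes, a ratio of 1.35.

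**Figure D3:**
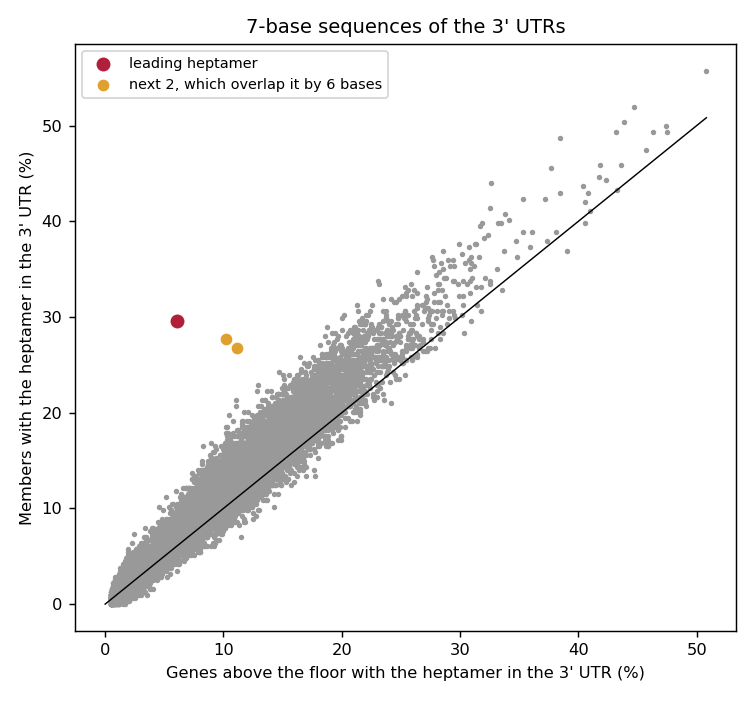
Share of the 314 members (vertical) against share of the 11058 genes above the floor (horizontal) whose 3' UTR holds each of the 16106 sequences of 7 bases, with the line of equal shares. The leading sequence (dark red, 29.6% against 6.10%) and the 2 that overlap it (orange) lie apart from the band of the others; since the leading one was picked from this scan, its position is a description.

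Windows of 30 bases are shown here for deep, abundant and signalling members, so that the shared letters can be compared with their flanks, 5' to 3' on the transcript strand with GCAGTAC in capitals. They are 3' UTR sequence of GENCODE M21 transcripts, at chr2:180622017-180622046 (- strand) for Tcfl5, chrX:166452597-166452626 (+) for Trappc2, chr11:69850755-69850784 (+) for Plscr3, chr3:144597472-144597501 (+) for Selenof, chr2:13582530-13582559 (+) for Vim, chr12:86057365-86057394 (-) for Tgfb3 and chr12:73946169-73946198 (+) for Hif1a. Hspa12a, an HSP70-related gene, holds 3 copies, of which 2 are shown, at chr19:58798624-58798653 and chr19:58795980-58796009 on the - strand, and these are named by the position of the first capital in its 3' UTR.
Tcfl5: taaacattttcGCAGTACattgctttaatg
Trappc2: cataatacactGCAGTACcaagaagctgaa
Plscr3: gtaaaaggcaaGCAGTACcaaagatggcag
Selenof: actgaagatctGCAGTACgaatttaatact
Vim: ggtgcaacagtGCAGTACcagcaagaagga
Tgfb3: ctttgctcactGCAGTACatctgctctagg
Hif1a: atgctttgtcaGCAGTACatggtagccaca
Hspa12a 719: cccaaattacaGCAGTACccccttctctgg
Hspa12a 3363: gattaggctgcGCAGTACgtatgccgggga
The base before the capitals was T in 45 members, A in 36, G in 14 and C in 4, and in 266, 192, 205 and 35 of all genes above the floor that hold the sequence. The base after them was A in 43 members, C in 25, T in 25 and G in 6, and in 238, 191, 241 and 30 of all such genes.

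Members and other genes also differed in 3' UTR length. The median 3' UTR was 1553.5 bases long in members and 1260.0 in all genes above the floor. Per length, members held 101 copies, 0.153 per 1000 bases of 3' UTR, and the other genes 0.0330. The reverse complement, GTACTGC, was in 6.37% of members and 6.29% of genes. In the coding region GCAGTAC was present in 26.1% of members and 12.01% of the other genes. In coding region or 3' UTR it was present in 167 members (53.2%) and in 16.7% of the other genes. Of the 54 genes higher only with the negative control, 53 had a 3' UTR and 2 of these held it (3.77%). GC content of the 3' UTR (median 44.0% in members, 44.4% in all), exon number (8 and 9) and the length of the gene (24989 and 25725 bases) lay close together.

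The sequence was in the 3' UTR of 5 of the 13 members that dipped by at least 1, of 12 of the deepest 25, 22 of the deepest 50, 39 of the deepest 100 and 93 of the 314. The share was 48% in the deepest 25, 44% in the deepest 50 and 39% in the deepest 100. It was lower in the 13 than in the deepest 25, although the deepest of all, Zfp966, Tcfl5, Lrtm1 and Rasl12, each held it. Among the deepest 25 the members that held it were Zfp966, Tcfl5, Lrtm1, Rasl12, Trappc2, Plscr3, Heg1, Lage3, Fam8a1, Hspa12a, Abi3bp and Camk2n1. Asic1 and Col8a1 held it in the coding region only. The remaining 11, among them Itgb8, Chsy3, Artn, Gxylt2 and Scx, held it in neither region.

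Counted from the sequence, the rule caught few of the genes that carry it. Of genes above the floor with no copy in the 3' UTR 2.13% were members, of the 637 with 1 copy 13.5% and of the 37 with 2 or more 18.9%. The medians that follow are a description, since the sequence was picked from members that were chosen on the first 2 of these ratios. The median ratio of negative control to knockout was 0.01 for genes without a copy, -0.11 with 1 and -0.18 with 2 or more, and that of mimic to negative control was -0.02, 0.15 and 0.31. The 581 carriers that were not members had a median of -0.08 from knockout to negative control. Of these 66.1% were below 0, beside 46.9% of genes without a copy in the 3' UTR. Genes without a 3' UTR copy include 1286 with a copy in the coding region only, which had -0.06, and those with neither had 0.02. Between mimic and knockout, where the negative-control library plays no part, the medians were 0.00, 0.04 and 0.08 for 0, 1 and 2 or more copies. Between knockout and wild type they were 0.04, -0.01 and -0.08.

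**Figure D4:**
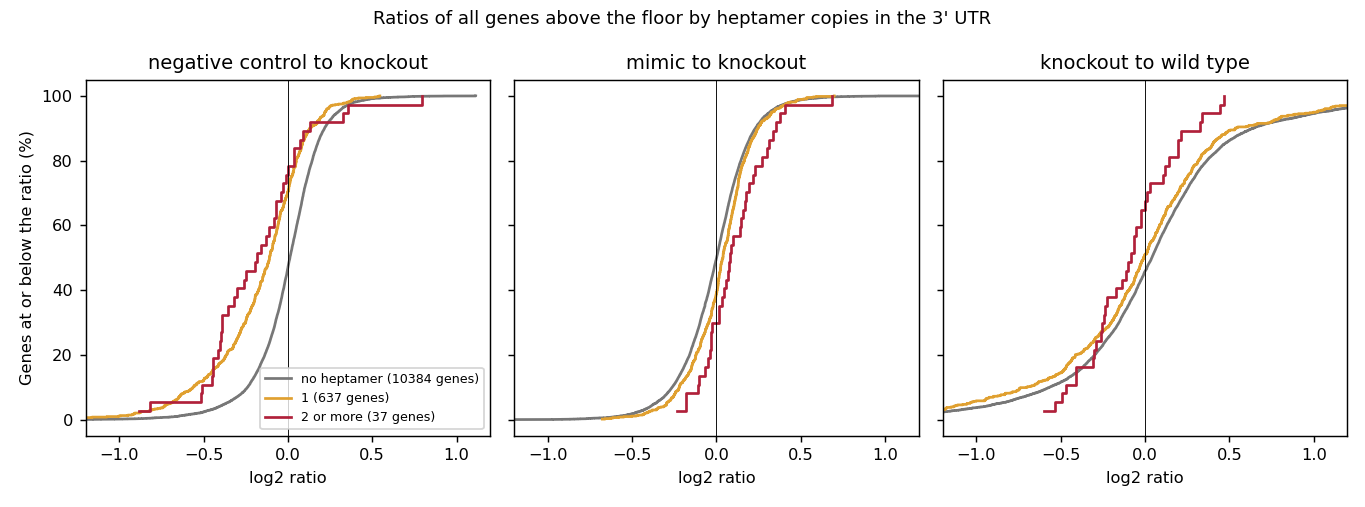
Cumulative share of genes above the floor (vertical, %) at or below each log2 ratio (horizontal), by copies of GCAGTAC in the 3' UTR. In the panel of negative control to knockout the curves with 1 (637 genes) and with 2 or more copies (37 genes) lie left of that without, with medians of -0.11 and -0.18 against 0.01, while in the mimic to knockout panel they lie slightly right of it, at 0.04 and 0.08 against 0.00.

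The letters of miR-26a sites were not more common in members. Members were chosen for a higher level with the miR-26a mimic than with the negative control, so the rule disfavours transcripts that the mimic lowers. TACTTGA, which pairs with bases 2 to 8 of miR-26a-5p, was in 32 members (10.2%) and in 11.96% of genes, at rank 15942 of 16106 by the difference. None of 1679 mature mouse miRNA names in the RefSeq table has a seed that pairs with GCAGTAC over bases 2 to 8. None of the 26 published miR-26a targets above the floor was a member, beside 2.85% of all genes above it. From negative control to mimic these targets had a median of -0.27, beside -0.01 for all genes above the floor. Below 0 were 17 of 26 measured targets, beside 51.7% of all genes above the floor, whereas the rule asks for a rise. The absence of these targets is therefore partly set by the rule.

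Signalling genes of the TGF-beta and BMP pathway supplied 3 members of 24 genes above the floor, the ligand Tgfb3, the activin receptor Acvr2a and the transducer Smad2. That is 12.5%, beside 2.85% of all genes above the floor. Tgfb3 had 107.8 TPM in the wild type, 69.9 in the knockout, 40.7 with the negative control and 73.1 with the mimic, a ratio of negative control to knockout of -0.81 (-0.91 to -0.71). Acvr2a had 30.39, 13.56, 9.84 and 18.91 TPM, and Smad2 19.63, 16.8, 12.66 and 17.64 TPM. All 3 hold GCAGTAC in the 3' UTR, Smad2 in 2 copies, while 6 of the 24 genes of the list do. The whole list had a median of -0.12 from knockout to negative control, with 19 of 24 measured genes below 0, beside a median of 0.00 for all measured genes. Of all genes above the floor 48.4% were below 0.

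Of the 6 genes of the cartilage and tendon list 4 were above the floor, and of the 5 of the osteoblast list 1 was. The floor, set in the knockout and mimic libraries, kept out the rest. All of those above it were members, beside 2.85% of all genes above the floor. The 4 of cartilage and tendon were the tendon transcription factor Scx, the cartilage transcription factor Sox9, the matrix protein Comp and collagen II, Col2a1. Comp had 491 TPM in the wild type, 80.6 in the knockout, 45.02 with the negative control and 74.9 with the mimic. Scx had 10.95, 7.22, 2.91 and 6.08 TPM, and Sox9 7.33, 3.24, 2.47 and 3.29 TPM. Each was highest in the wild type and lowest with the negative control. Col2a1 ran the other way between genotypes, at 0.53, 4.42, 3.32 and 6.84 TPM. Runx2, the osteoblast transcription factor and the 1 gene of the osteoblast list above the floor, had 13.85, 8.93, 5.79 and 9.95 TPM. Runx2 holds GCAGTAC in the 3' UTR and the 4 cartilage and tendon genes do not, although Col2a1 holds it in the coding region. The summed level of the 9 fibroblast markers was also lowest with the negative control. That sum includes Vim and Prg4, members that the rule chose for being low there, so its low value is built in to that extent. The part of cell composition in these values was not tested.

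Structural genes of fibroblasts are given here by list, and the lists do not hold every gene of a class. Of genes above the floor, members were 9.52% of the collagen list and 2.86% of the list of other matrix proteins. They were 9.68% of the integrin and focal adhesion list and 7.41% of the contractile list. Over all genes above the floor the share was 2.85%. Of the collagen list 2 of 21 were members, Col8a1 and Col12a1, a collagen that decorates fibrils, and Col12a1 had 278 TPM in the wild type, 239.7 in the knockout, 173 with the negative control and 241 with the mimic. Col2a1, counted with cartilage, is a further collagen among the members. Of the list of other matrix proteins 1 of 35 was a member, Mfap5, a microfibril protein, at 279, 202, 129 and 232 TPM in the same order. Prg4, which encodes the joint lubricant lubricin, had 95.1, 106, 70.5 and 116 TPM. Col12a1, Mfap5 and Prg4 had their lowest level with the negative control. Matrix and secreted proteins outside the list were members too, among them Comp, Cilp, Abi3bp, Tnn, Smoc2, Thbs4, Edil3, Tinagl1 and Sned1. Sned1 had 212 TPM in the wild type, 82.9 in the knockout, 61.1 with the negative control and 87.2 with the mimic. Of the integrin and focal adhesion list 3 of 31 were members, Itgb8, the talin Tln2 and the kindlin Fermt2. Of the contractile list 2 of 27 were members, the calponin Cnn1 and the smooth muscle actin Actg2, both higher in the knockout than in the wild type, Cnn1 at 52.9 against 14.3 TPM and Actg2 at 177 against 21.8 TPM.

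Secreted guidance and growth factors were represented by a few genes. Of genes above the floor, members were 16.7% of the semaphorin, plexin, slit and robo list and 10% of the Wnt list. They were 3.85% of the receptor tyrosine kinase and growth factor list and 2.44% of the chromatin list. Over all genes above the floor the share was 2.85%. Of semaphorins, plexins, slits and robos 3 of 18 were members, Sema3a, Sema3c and Sema3f, and the list as a whole had a median of 0.01. Sema3c had 14.09 TPM in the wild type, 11.01 in the knockout, 7.32 with the negative control and 13.96 with the mimic. Of the Wnt list 2 of 20 were members, the ligand Wnt9a and the feedback inhibitor Axin2. Outside the list the receptor Fzd5, the inhibitor Nkd2 and the R-spondin receptor Lgr6 were members, Fzd5 at 20.47, 8.90, 6.07 and 10.25 TPM in the same order. The Wnt list as a whole had a median of -0.24 from knockout to negative control. Below 0 were 20 of its 23 measured genes, beside 48.4% of all genes above the floor. Of the list of receptor tyrosine kinases and growth factors Fgf2 was a member, 1 of 26, and outside it the receptor Ret and the ligands Artn, Fgf5 and Fgf18 were. Of the list of chromatin regulators Ash1l was a member, 1 of 41. Fgf2 was the 1 member whose TPM went against the rule, at 22.25 in the knockout and 23.44 with the negative control, against a ratio of counts of -0.40 (-0.55 to -0.26).

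Other lists held no member, beside 2.85% of all genes above the floor. These were the YAP and TAZ list (17 genes above the floor), the Notch pathway (13), lipoprotein receptors (10), cadherins and protocadherins (12), microRNA machinery (13), macrophage markers (12), G2/M genes (17) and cytosolic ribosomal proteins (20). Genes of the same classes that the lists do not name were members, such as the cadherin Cdh19, the protocadherin Pcdh20 and the ribosomal protein gene Rpsa. No gene of the endothelial, Schwann cell, adipocyte, muscle and epithelial marker lists was a member, and at most 4 genes of each of these 5 lists were above the floor. Cd34, Plin4, Aoc3 and Krt80, known from endothelial cells, fat cells and epithelia but not in these lists, were members.

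Further groups were put together after the members' names were known, so their counts only order the names. Vesicle traffic gave 13 of 29 genes, from the coat subunits Copg1 and Sec24a to the cargo receptor Surf4 and the endosomal Chmp3. The 7 genes of the list with GCAGTAC in the 3' UTR are all among the 13, but the list was made with the members in view. Of all 674 genes above the floor with the sequence there, 93 were members. Chmp3 had 155 TPM in the wild type, 178 in the knockout, 98.2 with the negative control and 165 with the mimic. Glycan and proteoglycan synthesis gave 10 of 32, with Chsy3 and Gxylt2 the deepest. Hypoxia response and glycolysis gave 9 of 27, among them Hif1a, the oxygen-regulated transcription factor, at 239, 148, 86.6 and 149 TPM, and its ratio of negative control to knockout was -0.80 (-0.86 to -0.74). Hif1a was the 1 gene of these 9 with GCAGTAC in the 3' UTR, and Bnip3, Ndufa4l2, Stc1, Stc2, Slc16a3, Pfkl, Ak4 and Hilpda had none there. Bnip3, a mitophagy receptor, had 102.6, 60.6, 41.4 and 59.7 TPM.

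Smaller groups of this kind were Cdc42 effector proteins (3 of 5), interferon-stimulated genes (5 of 18), hedgehog and limb patterning (5 of 15), caveolae (2 of 6, Cavin2 and Cavin3) and the scaffold and catalytic subunits of the phosphatase PP2A (2 of 4, Ppp2r1a and Ppp2r1b). Cdc42ep1 had 55.5 TPM in the wild type, 24.6 in the knockout, 15.1 with the negative control and 32.4 with the mimic. The interferon-stimulated members, Ifit1, Isg15, Irf7, Oasl2 and Slfn8, had more TPM with the mimic than in the knockout, although for Isg15 the interval of that ratio included 0. Ifit1 had 2.89, 5.32, 3.71 and 7.95 TPM in the order above, so the mimic library stood above the other 3. Hoxa11, Hoxc8, Six4, Gli2 and Shox2 were below 25 TPM in every library, and for Hoxa11 and Gli2 the interval of the fall included 0.

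Against the wild-type library, which the rule did not use, the members stood more often lower. The knockout library was still one that chose them, and each comparison with wild type shares it or another of the 3. In the knockout 27 members were at least 2-fold higher, 8.54%, beside 5.91% of the genes tested, and 53 were lower by that much, 16.8%, beside 7.01%. With the negative control 12 were higher, beside 5.84% of all genes, and 114 were lower, 36.1% of the members beside 8.11%. Members were chosen for a low level in that library, so an excess of lower ones there is partly built in. With the mimic 28 were higher, beside 5.81%, and 47 lower, 14.9% of the members beside 7.7%. Of the 11098 genes above the floor, which is the set the members were drawn from, 5.41%, 5.33% and 5.26% were higher and 3.82%, 4.70% and 4.24% lower in these comparisons. The members' medians were -0.14, -0.74 and -0.09, in the same order. The wild type was the highest library in TPM for 197 members, the lowest for 35 and in between for 84. The fibroblast marker sum was 16472 TPM for wild type and 9240.4 for knockout, the macrophage sum 21912 and 32211 TPM, and their part in these counts was not tested.

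The largest differences between genotypes went both ways. Tbx20, at 0.1 TPM for wild type and 2.42 for knockout, had the highest ratio of all members, 5.98 (4.44 to 12.26). Comp, at -2.48 (-2.55 to -2.40), Igfbp5, an IGF-binding protein, at -2.45 (-2.54 to -2.37), and Ndnf, a secreted neuron-derived factor, at -2.28 (-2.53 to -2.05), were the lowest in the knockout, with Gxylt2 and Cilp. Igfbp5 had 137 TPM in the wild type, 22.96 in the knockout, 15.3 with the negative control and 25.1 with the mimic. Among members with at least 5 TPM in either library Aldh1a3, an enzyme of retinoic acid synthesis, was the highest at 3.43 (3.20 to 3.68), with 5.68, 56.3, 33.5 and 66.9 TPM. It was followed by Actg2, the cytokine Tnfsf15, the ecto-nucleotidase Nt5e and the prostaglandin transporter Slco2a1. In these 5 genes the level with the negative control was still above the wild type, whereas in Comp, Igfbp5 and Ndnf all 3 knockout libraries lay far below it. Of members with GCAGTAC in the 3' UTR 11 of 93 were at least 2-fold lower in the knockout (11.8%) and 3 higher (3.23%). Of all genes above the floor with a copy there 5.49% were lower and 4.75% higher. Of members without it 42 of 221 were lower (19.0%) and 24 higher (10.9%). The shares in all genes above the floor without a copy were 3.71% and 5.41%.

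**Figure D5:**
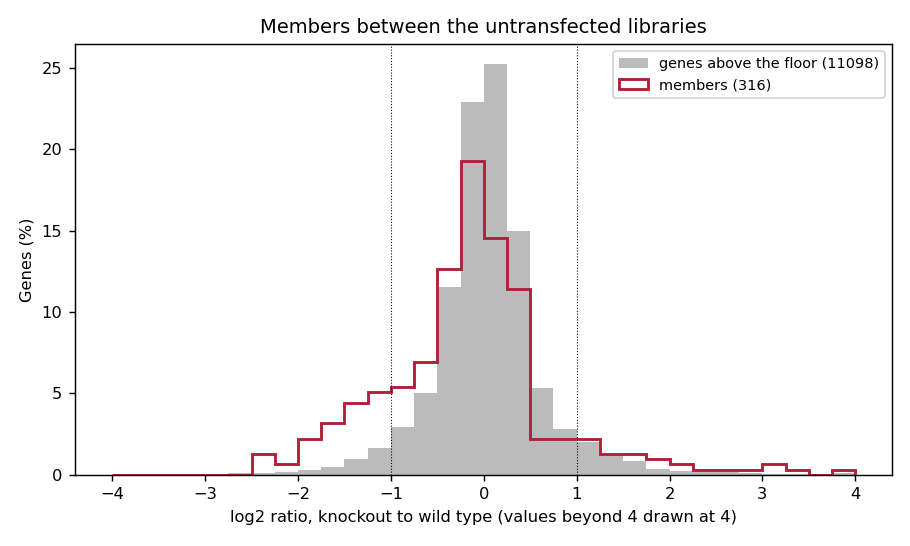
Distribution of the log2 ratio of knockout to wild type (horizontal, bins of equal width) as a share of genes (vertical, %), for the 11098 genes above the floor (grey) and the 316 members (red line), with 2-fold dotted. The members' line is higher than the grey to the left of the lower dotted line. By the calls in the text 16.8% of members and 3.82% of the grey genes were lower in the knockout, and 8.54% and 5.41% higher.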

How the data were processed

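The authors deposited 1 gene table with 3 kinds of values used here for 4 libraries: estimated counts not scaled by library size, TPM, and normalized counts, a signal equal to the count divided by 1 size factor per library, per the file headers and the values. FastQC, HISAT and Bowtie2 and the builds GRCm38.p6 and mm10 appear in the submitters' processing notes. How reads were counted, on which annotation and strand, is not given in the sources used here. Spreadsheet dates in place of 26 symbols were restored by Entrez identifier. Groups came from the labels. Members followed the rule above.

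Ratios used edgeR 4.0.16 TMM factors (0.978 wild type, 1.00 knockout, 1.02 negative control, 0.997 mimic) and a prior of 1 count. Genes with at least 1 CPM in either library were measured. Counts were rounded for the intervals. Depth was similar between libraries, so a gene's own count sets its precision.

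Members and all 26 gene lists were chosen with earlier results of these data known, and 8 lists were added with the members in view. Named genes were the 25 deepest dips, the 10 highest in TPM in the knockout, the 5 highest and 5 lowest between genotypes with at least 5 TPM, those next to each limit (1 is not reported here), and members in the 26 lists; the sequence windows and all other names were chosen after their values were seen. The 7-base scan took 3' UTRs from GENCODE M21. Alternatives were other limits, floors, scalings, priors and transcripts. The scripts were tested on simulated counts. Software was R 4.3.3, DESeq2 1.42.0, Python 3.11.15, pandas 2.3.3 and scipy 1.17.1.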

Additional observations from a re-analysis of the deposited data

How the results depend on the processing

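Membership depended on the limit and on the unit. A limit of 0.3 gave 542 genes and 0.5 gave 188, a floor of 200 normalized counts 201 and no floor 914. The rule applied to deposited TPM gave 210 genes, of which 204 are among the 316. With TMM scaling it gave 311, with total-count scaling 259 and with DESeq2 size factors 316. On TPM the median ratio of knockout to wild type was -0.27 in members, with the median of all measured genes moved by -0.12; that of negative control to wild type was -0.84 (-0.68 by total counts) and that of mimic to knockout 0.084. No direction was reversed in these results. The share of members with GCAGTAC in the 3' UTR ran from 27.4% to 34.5% over 5 alternatives chosen after seeing the data. The cause of these shifts was not tested. No paired analysis was possible because each group has 1 library, and for the same reason no library could be left out. Low counts limit the members under 100 normalized counts with the negative control.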
